A study of Mus musculus with 24 samples.

Results

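Guanylate-binding proteins (GBPs) and immunity-related GTPases (IRGs) are large GTPases that mouse cells make in response to interferons. GBPs and the effector IRGs gather on the vacuoles in which intracellular bacteria and parasites live and help to break them open, while a regulatory class of IRGs sits on the cell's own membranes and keeps the effectors inactive there. Interferons act on their genes through receptors at the cell surface, JAK kinases bound to them, and transcription factors of the STAT and IRF families. 4 GBP genes (Gbp2, Gbp3, Gbp7 and Gbp9) and 4 IRG genes (Irgm1, Irgm2, Igtp and Iigp1) were taken by name from the protein-coding genes of the count table, and all 8 were found. They are 8 of the 56748 genes in the table, 21970 of which are protein coding, and every one passed the filter on low counts in each comparison.

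The 24 RNA sequencing libraries came from cultured liver endothelial cells of female C57BL/6 mice aged 3 months, 1 week after transduction with a lentivirus. Cells had been collected on magnetic beads either with Cd31, to obtain liver endothelial cells, or with Cd146, to obtain sinusoidal endothelial cells. Each population was given 1 of 4 constructs, which makes 8 groups of 3 libraries. To silence P16Ink4a, the cell cycle inhibitor encoded by Cdkn2a, cells received a small hairpin against it (P16 shRNA), with a non-coding hairpin (nc shRNA) as its control. For overexpression, cells received P16Ink4a fused to GFP (P16), and the control was that vector with no insert (empty vector). The hairpins and the overexpression pair are in different vectors, all cells carry a lentivirus and a resistance gene, and untransduced cells were not analysed here.

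The libraries held 15409767 to 26470392 counted reads, and a count of 3 corresponded to 0.106 to 0.204 CPM (the usual count rate relative to library size, scaled with edgeR's TMM factors). Over both populations Cdkn2a was lower under the P16 hairpin by a log2 fold change of -3.15 (SE 0.349, adjusted p = 0.00162, edgeR), with 5.12 to 25.7 CPM against 36.2 to 196 CPM under nc shRNA. In the overexpression arm it was at 137 to 834 CPM against 32.5 to 104 CPM with empty vector. Over both populations its log2 fold change there was 2.23 (SE 0.355, unadjusted p = 8.13e-05, adjusted p = 0.826, edgeR). Within Cd31+ and Cd146+ cells the adjusted p was 0.947 and 0.986 (edgeR). The overexpressed gene itself thus did not pass after adjustment in that arm. The mice were stated to be female, but 16 libraries, all those numbered 1, 2 and 3 in the labels, held transcripts of Y-linked genes, and 8, all those numbered 4, 5 and 6, held Xist. The 3 Cd146+ libraries numbered 3 (nc shRNA, P16 shRNA and P16) had 4.05 to 10.1 CPM of Pecam1, the gene of Cd31, and 3.70 to 6.34 CPM of Cdh5, against 61.5 to 281 and 46.8 to 366 CPM in the other 21. Mesenchymal markers summed to 6593 to 51034 CPM and endothelial markers to 286 to 2211 CPM, so all cultures held RNA typical of mesenchymal cells. In such bulk samples fewer cells of a type and less RNA per cell cannot be told apart.

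By the positions in the deposited table, Gbp2 (ENSMUSG00000028270, chr3:142326363-142343769, plus strand), Gbp3 (ENSMUSG00000028268, chr3:142265787-142278970, plus) and Gbp7 (ENSMUSG00000040253, chr3:142236103-142255910, plus) lie in 1 cluster. Gbp9 (ENSMUSG00000029298, chr5:105225496-105287405, minus) lies in the other GBP cluster. Irgm2 (ENSMUSG00000069874, chr11:58090444-58113608, plus) and Igtp (ENSMUSG00000078853, chr11:58090382-58098417, plus) overlap, and Irgm1 (ENSMUSG00000046879, chr11:48752795-48762510, minus) lies elsewhere on the same chromosome. Iigp1 is ENSMUSG00000054072. The submitters' notes name mm9, which was not checked here, and these positions are not those of GRCm38. The table's gene lengths equal the joined exons of GENCODE release M21, in which Igtp and Irgm2 share 162 exon bases on 1 strand (8.01% of Igtp, 4.39% of Irgm2). Gbp7 shares 637 bases (11.3%) with a processed pseudogene, Gbp9 shares 60 bases with each of Gbp4 and Gbp8, and Gbp2 shares 24 with a microRNA gene on the opposite strand. How the counting treated reads from shared bases is not given in the sources used here, so the split between Igtp and Irgm2, and Gbp7's count, are uncertain by those reads.

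Promoter windows of RefSeq on GRCm38.p6, 300 bases each from 250 before the start, were at hand for 6 of the 8 genes, but not for Gbp9 and Iigp1. They are shown because the genes are known for interferon-driven transcription and moved together in these libraries. Capitals mark matches to the core of the interferon-stimulated response element (ISRE), GAAANNGAA, on either strand, so that a match on the other strand shows its reverse complement, and each sequence runs 5′ to 3′ along its gene.
Gbp2: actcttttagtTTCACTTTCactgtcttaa
Gbp3: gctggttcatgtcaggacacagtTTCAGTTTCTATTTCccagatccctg
Gbp7: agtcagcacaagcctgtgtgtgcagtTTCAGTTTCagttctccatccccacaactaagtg
Irgm1: tgtttcaaGAAATAGAAACCGAAactgatt
Irgm2: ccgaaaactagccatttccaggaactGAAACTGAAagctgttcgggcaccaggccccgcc
Igtp: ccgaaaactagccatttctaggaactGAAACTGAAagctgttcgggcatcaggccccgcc

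These stretches are chr3:142620594-142620623 (Gbp2), chr3:142559977-142560025 (Gbp3), chr3:142530258-142530317 (Gbp7), chr11:48871429-48871458 on the minus strand (Irgm1), chr11:58214887-58214946 (Irgm2) and chr11:58199496-58199555 (Igtp). The ISRE core was found in 6 of the 6 windows and in 2812 of all 32851 RefSeq windows of that length (8.56%). In Gbp3 and Irgm1 there were 2 overlapping matches each, and in Gbp2, Gbp7, Irgm2 and Igtp 1 each, all within 64 bases before the start. In the 3 GBP promoters the matches were on the other strand, and in the 3 IRG promoters on the gene's own strand. The GAS letters TTCNNNGAA, which read the same on both strands and are the core of the interferon gamma-activated site, were found in Gbp7 (2 matches), Irgm2 and Igtp and in 8.3% of all windows. The windows of Igtp and Irgm2 agreed at 184 of 270 positions (68.1%) when shifted by 30 bases, with a run of 61 identical bases. A match of letters is a description and no evidence of binding.

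Compared per length (RPKM, which is CPM of the raw totals per kilobase of joined exons), Irgm1 had the highest mean of the 8 group means, at 23.2 RPKM, with a range over libraries of 5.57 to 86.2. Gbp2 followed at 12.7 RPKM (0.980 to 38.9), Gbp3 at 9.22 (0.119 to 41.2), Irgm2 at 6.69 (1.30 to 45.8) and Igtp at 6.35 (0.225 to 60.2). Iigp1 at 2.35 RPKM (0.0446 to 29.8), Gbp9 at 1.82 (0.0322 to 5.64) and Gbp7 at 1.46 (0.208 to 8.13) were the lowest. The order of neighbours was not the same in every library. Irgm1 exceeded Gbp2 in 19 of 24 libraries, Gbp2 exceeded Gbp3 in 21, and Igtp exceeded Iigp1 in 24, but Gbp3 exceeded Irgm2 in only 8 and Iigp1 exceeded Gbp9 in only 9. The FPKM deposited by the authors gave the same order of means. The genes also differed in how far they ranged: the highest library had 15.3 times the CPM of the lowest for Irgm1, and 644 times for Iigp1, whose lowest library held 4 reads.

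**Figure D1:**
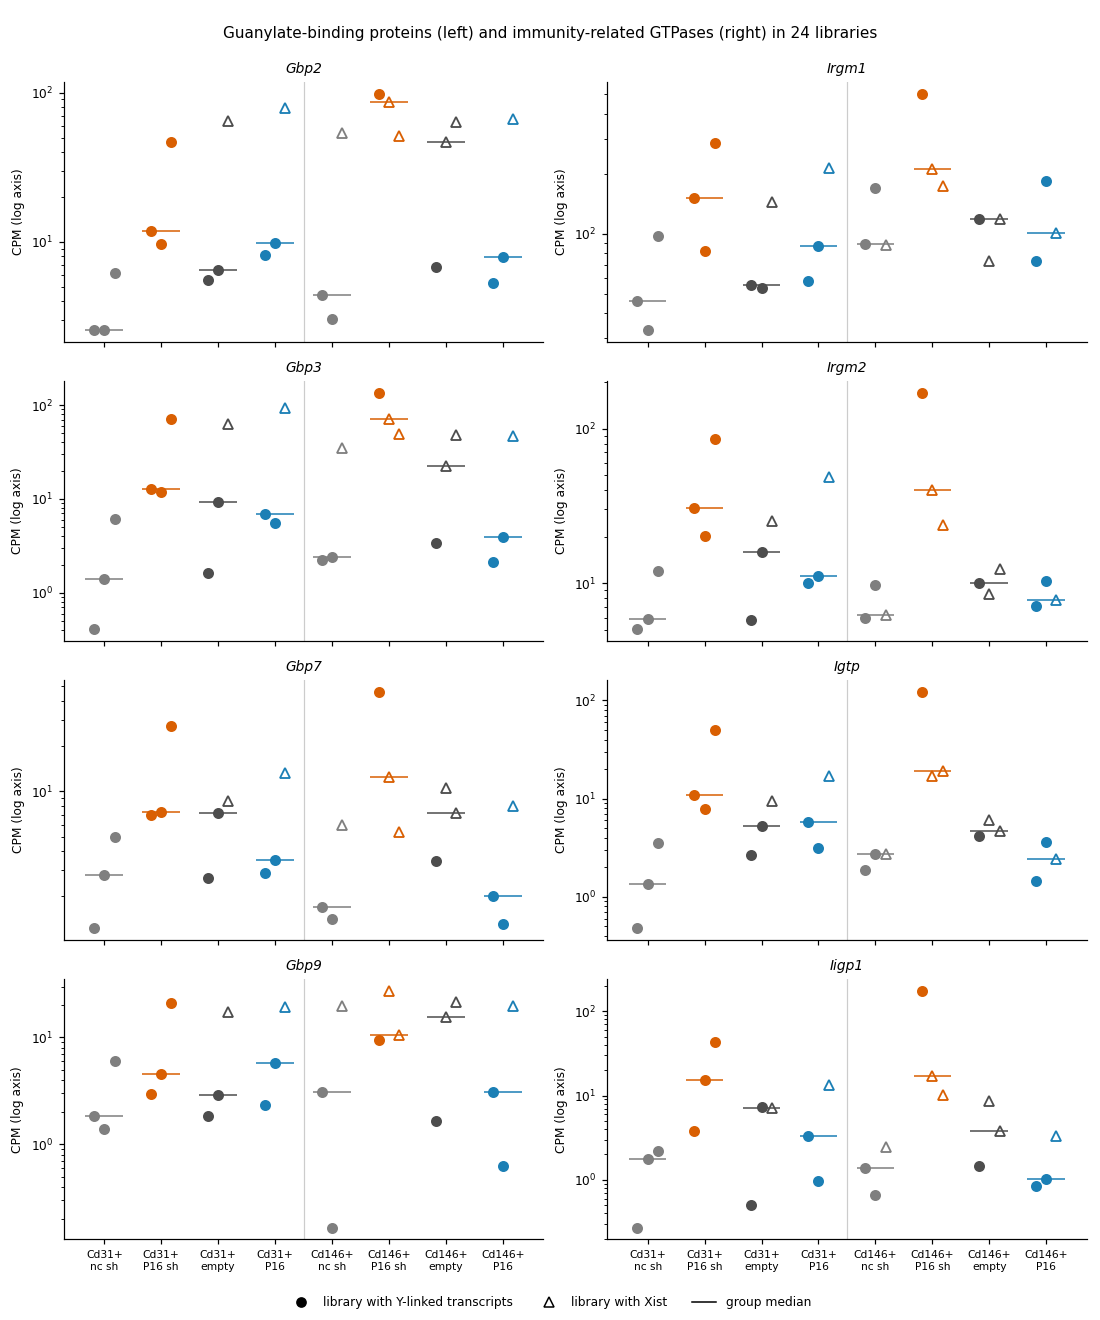
CPM (log axis) of the 4 GBPs (left) and 4 IRGs (right) in each of the 24 libraries, by population and construct, with a line at each group's median; filled circles are libraries with Y-linked transcripts and open triangles libraries with Xist. The P16 shRNA libraries (orange) lie above the nc shRNA libraries of the same population for most genes, and without the P16 hairpin the triangles are above the circles for Gbp2, Gbp3 and Gbp9.

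In Cd31+ cells all 8 genes had more reads under P16 shRNA than under nc shRNA, with fitted folds from 2.95 for Irgm1 to 14.5 for Iigp1. Gbp2, which is needed in mice to control vacuolar parasites, was at 2.58, 2.56 and 6.23 CPM in nc shRNA libraries 1, 2 and 3 and at 11.9, 9.68 and 46.8 CPM in P16 shRNA libraries 1, 2 and 3. Gbp3, its neighbour in the cluster, was at 0.408, 1.40 and 6.18 CPM against 12.8, 11.9 and 70.4 CPM. In both genes the lowest P16 shRNA library lay above the highest control, and number 3 was the highest library on each side. Gbp7 was at 1.22, 2.79 and 5.00 CPM with the control hairpin and at 6.91, 7.32 and 27.4 CPM with the P16 hairpin. Gbp9 was at 1.83, 1.40 and 6.01 CPM against 2.95, 4.56 and 20.9 CPM. Gbp7's groups did not overlap, whereas for Gbp9 the control numbered 3 exceeded the P16 shRNA libraries 1 and 2.

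The 3 regulatory IRGs of the GMS class, named for a methionine in their first GTP-binding motif, behaved alike in direction. Irgm1, which protects mice against mycobacteria among others, was at 46.4, 32.9 and 98.2 CPM under nc shRNA and at 152, 82.6 and 286 CPM under P16 shRNA. Irgm2 was at 5.03, 5.91 and 12.02 CPM against 30.5, 20.1 and 86.1 CPM. The groups were apart for Irgm2 but overlapped for Irgm1, whose control numbered 3 exceeded the P16 shRNA library numbered 2. Igtp, also called Irgm3, was at 0.476, 1.35 and 3.54 CPM against 10.8, 7.77 and 50.2 CPM. Iigp1, an effector of the GKS class that coats parasite vacuoles and whose gene is on chromosome 18, was at 0.272, 1.77 and 2.19 CPM against 3.80, 15.5 and 43.3 CPM. For both, all 3 P16 shRNA libraries lay above all 3 controls, which held for 6 of the 8 genes and for 13.8% of all genes tested.

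In the edgeR quasi-likelihood test over these 6 libraries, the log2 fold changes were 2.60 for Gbp2 (SE 0.752), 3.57 for Gbp3 (SE 1.14), 2.21 for Gbp7 (SE 0.748) and 1.63 for Gbp9 (SE 0.925). They were 1.56 for Irgm1 (SE 0.583), 2.58 for Irgm2 (SE 0.652), 3.67 for Igtp (SE 1.01) and 3.86 for Iigp1 (SE 1.06). 7 of the 8, all but Gbp9, passed an unadjusted p of 0.05, as 9.51% of all 14358 genes tested did in this direction. None passed after Benjamini-Hochberg adjustment over all genes (0.383% did), with adjusted p from 0.114 to 0.387, while 6 of the 8 passed with DESeq2's Wald test, as 3.38% of genes did. Libraries with the same number in the labels deviated together, and in the fit with the number as a block all 8 passed after adjustment, as 8.92% of genes did, on 2 residual degrees of freedom. Leaving out nc shRNA 2 reduced the count at an unadjusted p of 0.05 to 3, and leaving out P16 shRNA 3 reduced it to 4. The share of all genes in those fits is not given.

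In Cd146+ cells the 4 IRGs were higher under P16 shRNA in every library, and the GBPs depended on which libraries were set against each other. Irgm1 was at 88.9, 169.8 and 87.9 CPM in nc shRNA libraries 1, 3 and 5 and at 505, 212 and 174 CPM in P16 shRNA libraries 3, 5 and 6. Irgm2 was at 5.94, 9.68 and 6.19 CPM against 170.5, 39.8 and 23.7 CPM. The 3 controls of Irgm2 were close together, and P16 shRNA 3 was by far the highest library. Igtp was at 1.85, 2.75 and 2.72 CPM under nc shRNA and at 123, 16.9 and 18.9 CPM under P16 shRNA. Iigp1 was at 1.36, 0.667 and 2.46 CPM against 175, 17.2 and 10.1 CPM. Neither gene's groups came near each other, and the P16 shRNA library numbered 3, one of those with few endothelial transcripts, again stood far above.

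Among the GBPs, nc shRNA 5 was already high. It was the only control here with Xist, while P16 shRNA 5 and 6 both held it. These groups were thus not balanced in sex-linked transcripts. Gbp2 was at 4.42, 3.04 and 53.6 CPM in nc shRNA libraries 1, 3 and 5 and at 98.5, 86.4 and 51.4 CPM in P16 shRNA libraries 3, 5 and 6. Gbp3 was at 2.24, 2.42 and 35.1 CPM against 136, 70.8 and 49.7 CPM. The groups of Gbp3 were apart, but P16 shRNA 6 lay just under nc shRNA 5 in Gbp2. Gbp7 was at 1.69, 1.42 and 5.98 CPM against 46.0, 12.5 and 5.32 CPM. Gbp9 was at 3.11, 0.167 and 19.6 CPM against 9.53, 27.3 and 10.5 CPM, and the low value stood for 4 reads. Gbp2, Gbp7 and Gbp9 thus overlapped with their controls, and 5 of the 8 genes had all P16 shRNA libraries above all controls, as had 10.5% of all genes.

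The edgeR log2 fold changes in Cd146+ cells were 5.50 for Iigp1 (SE 1.32), 4.42 for Igtp (SE 0.907), 3.42 for Irgm2 (SE 0.789) and 1.36 for Irgm1 (SE 0.481). They were 2.81 for Gbp7 (SE 0.955), 2.69 for Gbp3 (SE 1.15), 1.95 for Gbp2 (SE 1.09) and 1.06 for Gbp9 (SE 1.29). The 4 IRGs and Gbp7 passed an unadjusted p of 0.05, 5 of the 8, as 5.44% of 15124 genes did in this direction. None passed after adjustment, as no gene of the table did in either direction (0%), with adjusted p from 0.382 to 0.751, and 4 passed with DESeq2, against 0.906% of genes. With the number as a block over the same 6 libraries, on 1 residual degree of freedom, 0 of the 8 passed after adjustment (0%), and with the block over all 12 Cd146+ libraries Irgm1, Irgm2 and Igtp passed (3 of 8, against 3.53% of genes). Without the libraries numbered 3, an alternative chosen after the data were seen, the log2 fold change was 2.83 for Iigp1, 2.96 for Igtp, 2.39 for Irgm2, 1.12 for Irgm1 and 1.22 for Gbp7, and the median over the 8 genes was 1.47 in place of 2.75. Only the 4 IRGs then passed an unadjusted p of 0.05, against 3.71% of genes. Leaving out nc shRNA 1 left 3 at that threshold, a count given without the share of all genes.

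Averaged over both populations, which gave the most libraries, Igtp rose 16.3-fold under P16 shRNA (log2 4.03, SE 0.735, adjusted p = 0.0123, edgeR) and Iigp1 25.2-fold (log2 4.66, SE 0.917, adjusted p = 0.0159). Irgm2 rose 7.88-fold (log2 2.98, SE 0.551, adjusted p = 0.0127) and Gbp7 5.61-fold (log2 2.49, SE 0.657, adjusted p = 0.0444). Irgm1, Gbp3 and Gbp2 had fitted folds of 2.72, 8.63 and 4.78 and adjusted p of 0.0533, 0.0563 and 0.0823. Gbp9 had a fitted fold of 2.52 (95% interval of log2 -0.60 to 3.27, adjusted p = 0.361). 7 of the 8 passed an unadjusted p of 0.05, against 12.9% of the 15676 genes tested, and 4 passed after adjustment, against 3.73%. With the number as a block over the same libraries, on 3 residual degrees of freedom, 4 of the 8 passed (10.6% of genes), but Irgm1 took the place of Gbp7: the adjusted p was 4.76e-05 for Irgm1, 0.00126 for Irgm2, 0.0100 for Igtp, 0.0400 for Iigp1 and 0.0543 for Gbp7. Without the Cd146+ libraries numbered 3, Irgm2, Igtp and Iigp1 passed (3 of 8, against 2.45% of genes) and Gbp7 did not (adjusted p = 0.115). A term for the sex-linked transcripts was also added after the data were seen. With it the median log2 fold change of the 4 GBPs was 2.48 in place of 2.37, and 0 of them passed after adjustment. Irgm1, Irgm2, Igtp and Iigp1 all passed in that fit, for which the share of all genes is not given.

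An exact permutation test of the mean difference in log2 CPM, two-sided, with labels exchanged within each population (400 arrangements), needs no model of the spread. It does treat the libraries of a population as exchangeable. Libraries of the same number deviated together, and the test does not use that pairing. The exact p was 0.005 for Gbp3, Irgm2, Igtp and Iigp1, which is the smallest it can give. For Gbp2 and Gbp7 the exact p was 0.01, for Irgm1 0.015 and for Gbp9 0.095. Within 1 population 3 libraries against 3 cannot give less than 0.1. The same p-values were found with CPM of the raw totals. No source says that the libraries of a group came from separate animals, so these p-values measure the spread between libraries.

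**Figure D2:**
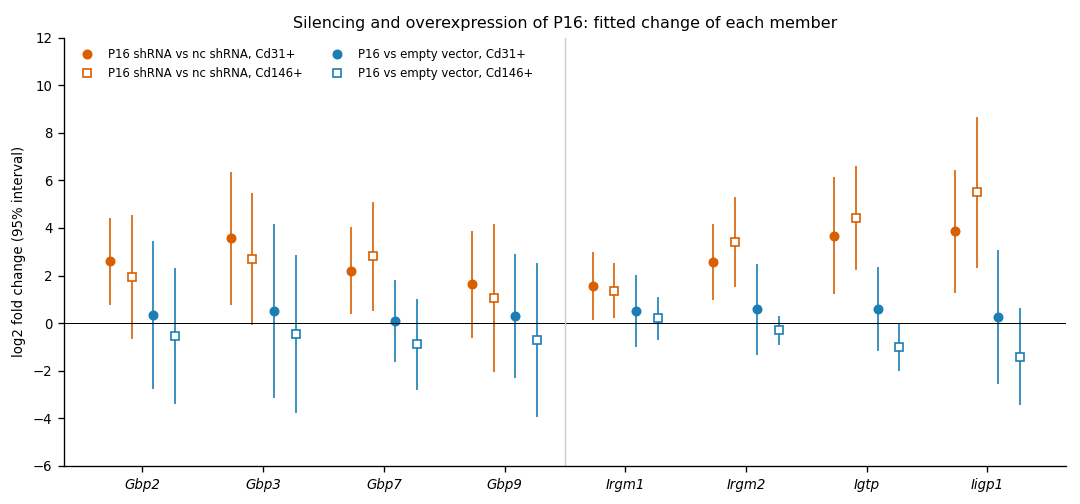
Log2 fold change (edgeR), with a 95% interval derived from its test, of each gene for P16 shRNA against nc shRNA (orange) and P16 against empty vector (blue), in Cd31+ (filled) and Cd146+ cells (open). All 16 silencing estimates are above 0, from 1.06 (Gbp9, Cd146+) to 5.50 (Iigp1, Cd146+), and the overexpression estimates lie between -1.40 and 0.59.

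Set side by side within a number, 5 pairs of libraries differed in the hairpin: Cd31+ numbers 1, 2 and 3 and Cd146+ numbers 3 and 5. In each of the 5 pairs all 8 genes were higher with the P16 hairpin. The ratio of CPM was steadiest for Irgm1, at 2.41 to 3.28, and ranged from 3.41 to 17.6 for Irgm2, 5.76 to 44.6 for Igtp and 6.99 to 262 for Iigp1. Among the GBPs it ranged from 1.61 to 32.4 for Gbp2, 2.02 to 56.0 for Gbp3, 2.09 to 32.5 for Gbp7 and 1.40 to 57.2 for Gbp9. The highest ratio of every gene but Irgm1 came from Cd146+ number 3. The pair with Xist, Cd146+ number 5, had the lowest ratio for each of the 4 GBPs, at 1.40 to 2.09 (median 1.82), and ratios of 2.41 to 6.99 (median 6.32) for the IRGs. In that pair the control library already had 53.6 CPM of Gbp2 and 35.1 CPM of Gbp3.

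**Figure D3:**
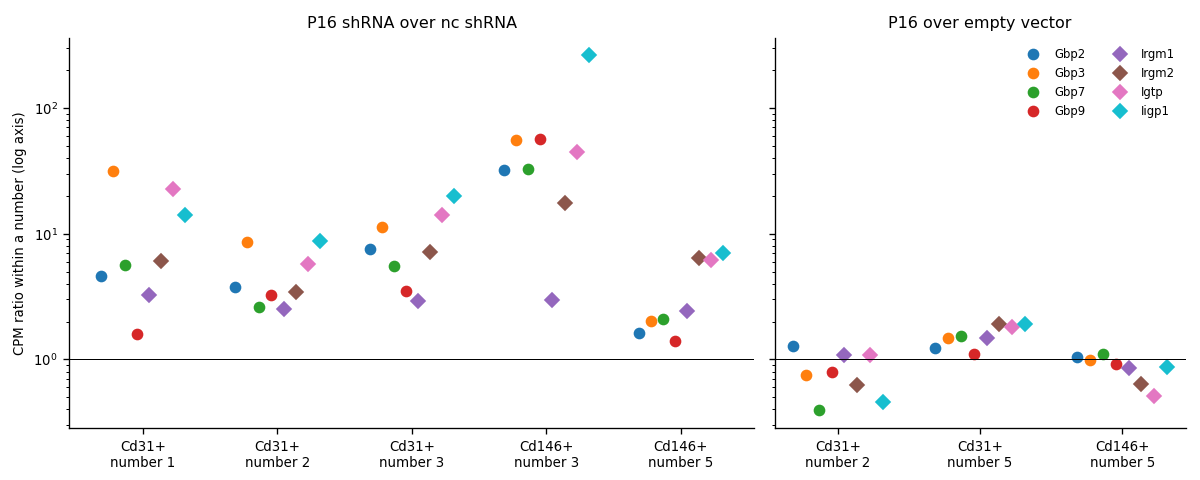
Ratio of CPM (log axis) between treated and control libraries of the same population and number, for P16 shRNA over nc shRNA (left, 5 pairs) and P16 over empty vector (right, 3 pairs); circles are GBPs and diamonds IRGs. All 40 silencing ratios are above 1, up to 262 for Iigp1 in Cd146+ number 3, and the overexpression ratios lie on both sides of 1, from 0.394 to 1.92.

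Gbp2, Gbp3 and Gbp9 also followed the sex-linked transcripts. Among the 18 libraries without the P16 hairpin, the 6 with Xist had 46.6 to 79.2 CPM of Gbp2 (median 64.0) and the 12 with Y-linked transcripts 2.56 to 9.81 CPM (median 5.89), a ratio of medians of 10.9. Gbp3 was at 22.7 to 92.2 CPM (median 47.6) against 0.408 to 9.34 CPM (median 2.92). Gbp9 was at 15.4 to 21.3 CPM (median 19.4) against 0.167 to 6.01 CPM (median 2.08). For these 3 of the 8 genes all Xist libraries lay above all Y-linked ones, as for 2.3% of the 16524 genes compared. Gbp7 was at 5.98 to 13.2 CPM against 1.22 to 7.23 CPM, which overlapped with a ratio of medians of 3.05. The IRGs overlapped as well, with ratios of 1.37 for Irgm1, 1.06 for Irgm2, 1.82 for Igtp and 4.58 for Iigp1. The comparison was chosen after the data were seen, and no test was made of it.

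Of 7 other GBP genes compared, Gbp5, Gbp2b and Gbp4 were apart in the same way, and Gbp6, Gbp8, Gbp10 and Gbp11 overlapped. The overlapping genes were low, with medians in the Y-linked libraries of 0.400, 0.256, 0 and 0.152 CPM. Their overlap therefore does not show a lack of difference. Gbp4 was low as well, at 0.504 to 1.73 CPM with Xist against 0 to 0.416 CPM. Gbp5 was at 10.95 to 31.0 CPM in the 6 libraries with Xist and 0.114 to 3.79 CPM in the 12 without, and Gbp2b, which is mouse Gbp1, was at 1.56 to 3.24 CPM against no read in any of the 12. Endothelial markers differed along the same line, with summed levels of 1596 to 2211 CPM against 320 to 1294 CPM. Macrophage markers summed to 28.8 to 418 CPM against 27.5 to 151 CPM, which overlapped. The Xist libraries are also all those numbered above 3, so sex-linked transcripts, the number and the share of endothelial RNA cannot be told apart, and their part in the levels of Gbp2, Gbp3 and Gbp9 was not tested.

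**Figure D4:**
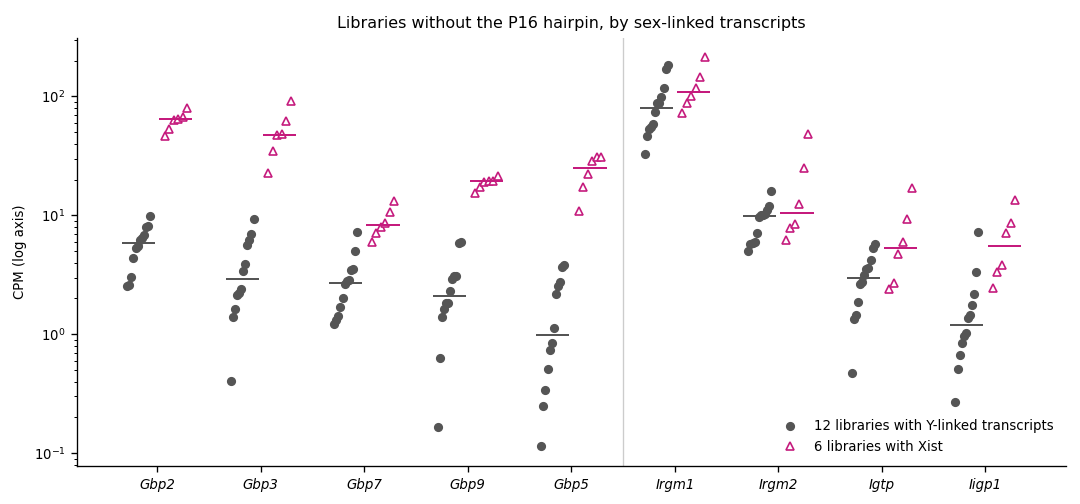
CPM (log axis) in the 18 libraries without the P16 hairpin, 12 with Y-linked transcripts (filled circles) and 6 with Xist (open triangles), with a line at each median, for the 4 GBPs and Gbp5 (left) and the 4 IRGs (right). The 2 kinds are apart for Gbp2, Gbp3, Gbp9 and Gbp5 and overlap for Gbp7 and the 4 IRGs.

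Overexpression of P16 gave no such shift. In Cd31+ cells Gbp2 was at 5.54, 6.44 and 64.7 CPM with empty vector (numbers 1, 2 and 5) and at 8.18, 9.81 and 79.2 CPM with P16 (numbers 2, 3 and 5). Igtp was at 2.64, 5.26 and 9.37 CPM against 5.75, 3.15 and 16.9 CPM. In both genes the groups overlapped, and number 5, the number with Xist, was the highest on each side. The 8 log2 fold changes lay between 0.10 and 0.59, and 0 of the 8 passed an unadjusted p of 0.05 in edgeR or DESeq2 (3.73% of genes in edgeR, either direction). Intervals were wide: for Gbp3 the 95% interval of the log2 fold change ran from -3.14 to 4.19, and for Irgm1 from -0.99 to 2.01.

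In Cd146+ cells Igtp was at 4.17, 6.00 and 4.71 CPM with empty vector (numbers 2, 4 and 5) and at 1.45, 3.59 and 2.41 CPM with P16 (numbers 1, 3 and 5). The groups of Igtp did not overlap, and it had a log2 fold change of -1.01 (SE 0.408, unadjusted p = 0.0471, adjusted p = 0.986, edgeR), the 1 of 8 genes past that threshold, against 3.53% of genes in either direction. Iigp1 was at 1.44, 8.66 and 3.84 CPM against 0.836, 1.02 and 3.35 CPM, with overlap. Empty vector 4 and 5 held Xist, but of the P16 libraries only number 5 did, so these groups were not balanced either. The 8 log2 fold changes lay between -1.40 and 0.20. Averaged over both populations they lay between -0.57 (Iigp1) and 0.36 (Irgm1), and 0 of 8 passed an unadjusted p of 0.05 in edgeR or DESeq2 (5.88% of genes in edgeR). The exact permutation p of the 8 genes was 0.33 to 0.98. In the 3 same-number pairs Gbp2 was higher with P16 in 3 of 3, by 1.05 to 1.27 times, and every other gene was higher in 1 or 2 of the 3.

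The effects of silencing and overexpression were also set against each other, with no library in common. In Cd31+ cells the silencing effect exceeded the overexpression effect by a log2 difference of 1.04 (Irgm1) to 3.59 (Iigp1), and 1 of the 8, Igtp, passed an unadjusted p of 0.05 (4.94% of genes in this direction). With the number as a block Gbp2, Gbp7, Gbp9 and Irgm1 passed after adjustment (4 of 8, against 2.07%), on 5 residual degrees of freedom. In Cd146+ cells the difference ran from 1.16 (Irgm1) to 6.87 (Iigp1), and Gbp7, Irgm2, Igtp and Iigp1 passed an unadjusted p of 0.05 (4 of 8, against 6.58%). Without the block, and with the filter on low counts, none of the 8 passed after adjustment in the edgeR fit of either population's 12 libraries. DESeq2 passed 0 in Cd31+ and 2 in Cd146+ cells (0.93% of genes in the latter). Without the filter 7 passed in Cd31+ cells, and with 1 fit over all 24 libraries 1 passed in Cd146+ cells. For these last counts the share of all genes is not given, so they do not set the 8 apart.

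The controls themselves were not level. In Cd31+ cells all 8 genes were lower with nc shRNA than with empty vector, by log2 fold changes of -3.20 (Gbp3) to -0.53 (Irgm1). Gbp2 alone passed an unadjusted p of 0.05 (log2 -2.77, SE 1.11, unadjusted p = 0.0463, adjusted p = 0.992, edgeR), 1 of 8 against 3.16% of genes in either direction, and DESeq2 passed 2 (3.24% of genes). The groups hold different numbers: nc shRNA has 1, 2 and 3, and empty vector has 1, 2 and 5. With the number as a block 7 of the 8, all but Gbp9, were lower after adjustment, against 3.07% of genes, on 1 residual degree of freedom, and the log2 fold change of Gbp2 was then -1.21. With a term for the sex-linked transcripts, chosen after the data were seen, 0 of 8 passed an unadjusted p of 0.05 and the log2 fold change of Gbp2 was -0.65. In Cd146+ cells the log2 fold changes between the controls lay between -1.64 (Iigp1) and 0.15 (Irgm1), and Igtp alone passed (log2 -1.03, SE 0.328, unadjusted p = 0.0191, adjusted p = 0.907, edgeR), 1 of 8 against 3.99% of genes. The comparison of silencing uses these same nc shRNA libraries.

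Between the populations no member differed past an unadjusted p of 0.05, in edgeR or DESeq2. For the control constructs 0 of 8 passed, against 16.4% of genes in either direction, and the log2 fold change of Cd146+ over Cd31+ cells lay between -0.34 (Irgm2) and 1.52 (Gbp2). The silencing effect differed by -0.90 (Gbp3) to 1.61 (Iigp1) on the log2 scale (0 of 8, against 1.07% of genes) and the overexpression effect by -1.68 (Iigp1) to -0.31 (Irgm1) (0 of 8, against 3.24%). These intervals were wide, for Iigp1 from -2.09 to 5.31 in the silencing effect, and do not show that the populations acted alike.

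A list of 22 other GBP and IRG family genes held 21 genes of the table, 19 of which were tested over both populations. Under P16 shRNA 16 of the 19 had a positive log2 fold change, 12 passed an unadjusted p of 0.05 upwards and 0 downwards, and 5 passed after adjustment, with a median log2 fold change of 1.71 against 0.0028 over all genes. The 5 were Tgtp2, an effector IRG of the GKS class (log2 4.63, SE 0.975), Gm12250 (log2 6.65, SE 1.51), Gm4951 (log2 5.88, SE 1.35), Gbp6 (log2 3.69, SE 0.802) and Ifi47, an IRG also called Irgd (log2 1.34, SE 0.336), with adjusted p of 0.0206 to 0.0363. Gm12250 had 0 to 3 reads in each nc shRNA library, so its fitted fold depends on the prior count, and its P16 shRNA libraries ranged from 0.113 to 38.6 CPM. Without the P16 hairpin Gm4951 was at 0 to 0.541 CPM in Y-linked and 0.0492 to 1.87 CPM in Xist libraries. Gbp6 was at 0.0680 to 0.787 CPM and 0.213 to 0.715 CPM in the same libraries. Only 13 of these genes passed the filter in Cd31+ cells, not Gm12250 or Gm4951, and 16 in Cd146+ cells. Genes so low in the controls can enter the test through high P16 shRNA libraries, which limits these counts. Of the 19, 2 passed after adjustment without the Cd146+ libraries numbered 3, 12 with the replicate block and 6 with the sex-linked term. Irgq, a relative that is not known as interferon-driven, had a log2 fold change of -0.17 (SE 0.119). Under overexpression 0 of the 18 tested passed after adjustment in edgeR, and 1 passed an unadjusted p of 0.05, downwards. Cdkn2a itself did not pass after adjustment there, so the adjusted count does not show a lack of change.

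Of 8 JAK, STAT and IRF genes, 2 rose after adjustment under P16 shRNA and 1 fell. Those that rose were Stat2 (log2 1.93, SE 0.373, adjusted p = 0.0147) and Irf9 (log2 1.88, SE 0.301, adjusted p = 0.00731), which act together downstream of the type I interferon receptor. Jak1, a kinase on the receptors, fell (log2 -0.46, SE 0.101, adjusted p = 0.0222), and Jak2 had a log2 fold change of -0.28 (SE 0.215). At an unadjusted p of 0.05 the list held 3 genes upwards and 2 downwards. Of 11 ligands and receptors of interferons, 6 were tested and 0 passed after adjustment in edgeR. The receptor genes Ifnar1, Ifngr2 and Ifngr1 had log2 fold changes of -0.24, 0.03 and -0.10, the first with an unadjusted p under 0.05. The ligand genes Ifng and Ifnb1, named after their values were seen, were at no more than 0.0928 and 0.348 CPM in any library.

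Of 6 negative regulators of interferon signalling, 2 rose after adjustment: Usp18, which blocks the type I receptor (log2 5.16, SE 0.854, adjusted p = 0.00828), and Socs1, an inhibitor of JAK kinases (log2 1.40, SE 0.369, adjusted p = 0.0435). The more abundant Socs3, Pias1 and Ptpn2 had log2 fold changes of 0.06, -0.25 and 0.12. After adjustment 1 regulator passed without the Cd146+ libraries numbered 3 and 3 with the replicate block. Among 11 genes of the ATG8 conjugation machinery, which guides GBPs and IRGs to vacuoles, Gabarapl1 (log2 0.84, SE 0.117, adjusted p = 0.00388) and Atg12 (log2 0.34, SE 0.0907, adjusted p = 0.0450) rose, and Gabarap and Map1lc3b had log2 fold changes of -0.08 and 0.06. Without the Cd146+ libraries numbered 3, or with the sex-linked term, 1 ATG8 gene passed in place of 2. Of 8 genes for prenylation and CaaX processing, by which some GBPs are anchored to membranes, 0 passed after adjustment in edgeR and 3 passed an unadjusted p of 0.05, 2 upwards. Zmpste24, Fnta and Icmt, the most abundant, had log2 fold changes of -0.03, -0.12 and -0.09. Of 7 tested inflammasome and pyroptosis genes, which act downstream of GBPs, Casp4 rose (log2 1.17, SE 0.195, adjusted p = 0.00789), and Gsdmd and Casp1 had log2 fold changes of 0.48 and 1.01. With the replicate block 1 prenylation gene and 3 inflammasome genes passed upwards after adjustment. Under overexpression none of these 5 lists, nor the ligands and receptors, held a gene that passed after adjustment in edgeR. Cdkn2a itself did not pass there either, so these adjusted counts do not show a lack of change. At an unadjusted p of 0.05, 2 ligand and receptor genes and 3 ATG8 genes passed upwards and 1 prenylation gene downwards.

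**Figure D5:**
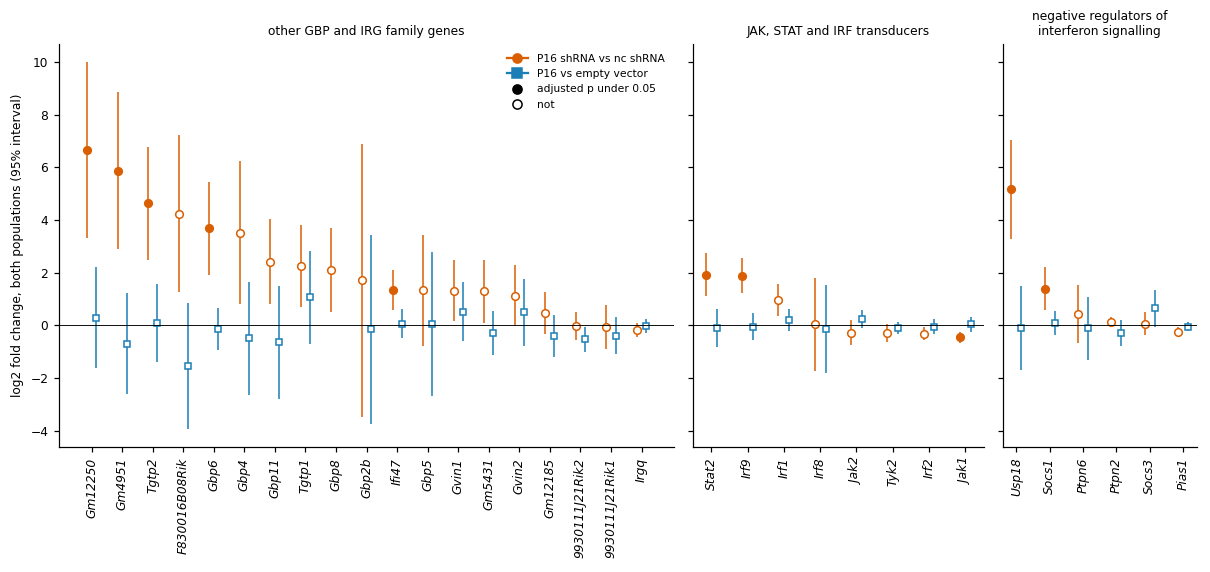
Log2 fold change over both populations (edgeR), with a 95% interval derived from its test, for the other GBP and IRG family genes, the JAK, STAT and IRF transducers and the negative regulators, under P16 shRNA against nc shRNA (orange) and P16 against empty vector (blue), filled where the adjusted p is under 0.05. Gm12250, Gm4951, Tgtp2, Gbp6, Ifi47, Stat2, Irf9, Usp18 and Socs1 are filled above 0 and Jak1 below 0 in the silencing comparison, and no overexpression point is filled. Without the P16 hairpin Gm12250, Gm4951 and Gbp6 reached at most 0.784, 1.87 and 0.787 CPM. Genes that low can enter the test through high P16 shRNA libraries. Cdkn2a, which is in none of these lists, missed an adjusted p of 0.05 under overexpression as well.

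Macrophages and lymphocytes also make GBPs and IRGs, so their markers are given beside these results. The 12 macrophage markers summed to 44.9 to 151 CPM under nc shRNA and 37.5 to 123 CPM under P16 shRNA in Cd31+ cells. In Cd146+ cells they summed to 27.5 to 333 CPM and 20.5 to 303 CPM. The macrophage sum was lower under P16 shRNA in each of the 5 same-number pairs. Its most abundant marker, Lyz2, averaged 63.6 CPM over the 24 libraries, against 12.2 for C1qa, the next. Lyz2 had log2 fold changes of -0.83 (SE 0.762) in Cd31+ and -0.51 (SE 1.14) in Cd146+ cells. Over both populations 7 of the 10 tested markers had a positive log2 fold change, so the sum does not describe most of them. Of the 10 tested over both populations 0 passed after adjustment or an unadjusted p of 0.05 in edgeR, with a median log2 fold change of 0.48, and 2 of the 12 stayed at or under 3 reads in every library. With the replicate block 2 macrophage markers were higher and 1 was lower after adjustment. The 11 lymphoid markers summed to 0.140 to 0.281 CPM under nc shRNA and 0.619 to 0.789 CPM under P16 shRNA in Cd31+ cells, and to 0.109 to 0.292 against 0.195 to 0.425 CPM in Cd146+ cells. Over all libraries they summed to 0.0569 to 0.789 CPM, with 8 at or under 3 reads in each, and the 5 hepatocyte markers to at most 0.829 CPM. None of 11 tested endothelial markers passed in either way, but 3 were lower after adjustment with the replicate block. Their summed level was lower under P16 shRNA in each of the 5 same-number pairs, at 286 against 499.7, 518 against 600.0 and 583 against 992 CPM in Cd31+ cells and 303 against 336 and 1485 against 1672 CPM in Cd146+ cells. Of 8 tested mesenchymal markers 1, Col3a1, rose (log2 0.77, SE 0.195, adjusted p = 0.0376), while Col1a1 and Col1a2 had log2 fold changes of 0.15 and 0.57. Without the Cd146+ libraries numbered 3 no mesenchymal marker passed after adjustment, 1 passed an unadjusted p of 0.05, and with the block 2 passed after adjustment. The mesenchymal sum was higher under P16 shRNA in each of the 5 pairs. It was 51034 against 37768, 24090 against 20190 and 34543 against 29731 CPM in Cd31+ cells. In Cd146+ cells it was 31590 against 27400 and 30588 against 26640 CPM. Of 4 tested cholangiocyte markers 0 passed in either way, and 1 was lower after adjustment with the block. Over both populations 2 of these 4 had a positive log2 fold change. Spp1 averaged 192 CPM over the 24 libraries, against 12.7 for Sox9 and 11.9 for Krt19. The cholangiocyte sum, which is mostly Spp1, was also higher under P16 shRNA in each of the 5 pairs. It was 982 against 802, 232 against 99.1 and 189 against 103 CPM in Cd31+ cells. In Cd146+ cells it was 166 against 54.5 and 295 against 218 CPM. The part of any of these cell types in the levels of the 8 genes was not tested.

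Across the 24 libraries the 8 genes followed each other to different degrees, which is a description over libraries that share constructs and numbers. Pearson's r of log2 CPM was 0.964 between Gbp2 and Gbp3 and 0.959 between Irgm2 and Igtp, which share exon bases, and 0.368 between Gbp9 and Irgm1, the lowest of the 28 pairs. Gbp7 was nearer to Iigp1 (0.929) than to Gbp2 (0.804) or Gbp9 (0.751). The 5 genes whose log2 CPM was most like the mean of the 8 standardized members, among 13407 genes, were Bst2 (r = 0.969), Ly6e (0.959), Trim12c (0.945), Oas1b (0.945) and Cmpk2 (0.941).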

How the data were processed

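RNA was measured in 24 libraries of cultured mouse liver endothelial cells. Raw counts per gene were deposited by the authors in 1 table with their FPKM (a rate per length and depth), and a sequencing provider made both. Per the submitters' processing notes fastp and mm9 were used, while the aligner, the counter and its strand setting are not given in the sources used here. Columns with the authors' own fold changes, p-values and group means were not used. Genes passing edgeR's filterByExpr (edgeR 4.0.16, R 4.3.3) were scaled by TMM and tested with its two-sided quasi-likelihood test in its robust form, and p-values were adjusted by Benjamini and Hochberg's method across every tested gene, with a threshold of 0.05. Groups came from the labels, 3 libraries each. CPM are count rates relative to TMM-scaled totals, and RPKM are rates relative to raw totals divided by the table's gene length. Exact permutation tests used log2(CPM + 0.5). Likeness was Pearson's r over 24 libraries among genes with a mean of at least 1 CPM.

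A count of 3 in a library was taken as the limit of what can be read as a signal, which covers counting error only. Within a group, replicates differed by a chi-square per gene of 35.5 to 210.3, far beyond sampling noise, so no library was counted as a duplicate. Libraries of the same number deviated together from their group means (median r 0.576 over 13 pairs in Cd31+ and 0.699 over 10 pairs in Cd146+ cells, lowest 0.350), against -0.173 and -0.0651 for different numbers, so the numbers were taken as pairs and the number was used as a block in an alternative.

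The alternatives were DESeq2 1.42.0 (size factors, Wald test), no filter beyond 1 count, a filter at a mean count of 10, fits over 12 or all 24 libraries, the replicate block, and leaving out each library. A term for sex-linked transcripts and leaving out the Cd146+ libraries numbered 3 were added after the data were seen. The 8 genes and the gene lists (other family genes, interferon ligands and receptors, JAK, STAT and IRF transducers, negative regulators, ATG8 conjugation, prenylation, inflammasome, and markers of 6 cell types) were chosen with earlier results of these data known. Named are the 8 genes, any other family gene tested, and of every other list the 3 most abundant genes and those with an adjusted p under 0.05 over both populations. 1 result of the transducers list is not reported here. Scripts were tested on simulated data. Python 3.11.15, pandas 2.3.3 and matplotlib 3.10.9 read the promoters and drew the plots.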

Additional observations from a re-analysis of the deposited data

Results flagged for a closer look

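In 5 cases the silencing effect and the overexpression effect on a gene differed past an unadjusted p of 0.05, by the interaction contrast in edgeR over the 12 libraries of a population. In Cd31+ cells the log2 difference for Igtp was 3.08 (SE 1.32, adjusted p = 0.447). It was 3.54 with the replicate number as a block and 3.24 with a term for the sex-linked transcripts. In Cd146+ cells the log2 difference for Gbp7 was 3.68 (SE 1.33, adjusted p = 0.328), for Irgm2 3.70 (SE 0.833, adjusted p = 0.264), for Igtp 5.42 (SE 0.992, adjusted p = 0.189) and for Iigp1 6.87 (SE 1.63, adjusted p = 0.264). All 5 differences were positive, with silencing above overexpression, and none passed after adjustment over all genes in this fit. With DESeq2, Irgm2 and Iigp1 in Cd146+ cells did. Without the Cd146+ libraries numbered 3, an alternative chosen after the data were seen, the log2 difference was 1.71 for Gbp7, which then missed an unadjusted p of 0.05, 2.85 for Irgm2, 4.32 for Igtp and 3.98 for Iigp1. With the block it was 3.73 for Gbp7, 4.52 for Irgm2, 5.70 for Igtp and 6.71 for Iigp1, and Gbp7 and Iigp1 missed that threshold.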

How the results depend on the processing

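The counts below are of the 8 genes, at an unadjusted p of 0.05 unless called adjusted. Shares of all genes are given above for only some of these settings, so a higher count alone does not set the 8 apart. For silencing in Cd31+ cells, with 7, every gene with at least 1 count gave 4 and leaving out a library 3 to 7. Its adjusted count of 0 became 6 with DESeq2 and 8 with the replicate block, over the same libraries or all 12. For silencing in Cd146+ cells leaving out a library gave 3 to 7, and the adjusted count of 0 became 4 with DESeq2 and 3 with a fit over all 24 libraries or with the block over 12. Over both populations the adjusted count of 4 became 2 with every gene, 8 with the block over all 24 libraries, and 2 to 6 without a library, the lowest without Cd146+ nc shRNA 1.

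For overexpression, the count of 0 in Cd31+ cells became 2 with the term for sex-linked transcripts, that of 0 over both populations became 1 with it, and that of 1 in Cd146+ cells became 0 with DESeq2's size factors, the fits over 12 or 24 libraries, the block over 12 and the sex-linked term, and 0 to 4 without a library. For nc shRNA against empty vector in Cd31+ cells the count of 1 became 0 with every gene, the fits over 12 or 24 libraries and the sex-linked term, 2 with DESeq2, and 7 with the block over the same libraries, where the adjusted count of 0 was also 7; without a library it was 0 to 6. In Cd146+ cells the count of 1 became 2 with every gene, DESeq2, the sex-linked term and without number 3, 0 with the fits over 12 or 24 libraries, and 0 to 4 without a library.

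For the silencing minus the overexpression effect in Cd31+ cells the count of 1 became 8 with every gene, 3 with DESeq2, 2 with 24 libraries, 8 with the block, 6 with the sex-linked term and 0 to 6 without a library, and the adjusted count of 0 became 7 with every gene and 4 with the block. In Cd146+ cells the count of 4 became 7 with the sex-linked term, and the adjusted count of 0 became 2 with DESeq2 and 1 with 24 libraries. Without a library the overexpression difference between populations gave 0 to 1 and the controls of both populations 0 to 2.

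Single genes were followed in the silencing comparisons and in overexpression over both populations, and in the other comparisons only where a gene had passed an unadjusted p of 0.05. Of these log2 fold changes 27 changed sign under an alternative, each in overexpression over both populations, where no gene passed. With the sex-linked term Gbp2 was 0.32 and Gbp9 0.30, and without number 3 they were 0.12 and 0.070. With the replicate block over 24 libraries Gbp3 was -0.36, Irgm1 -0.099 and Irgm2 -0.52. Without a library Gbp2 ranged from -1.12 to 0.97, Gbp3 from -1.26 to 1.12, Gbp9 from -1.25 to 0.63, Irgm1 from -0.013 to 0.69, Irgm2 from -0.44 to 0.41 and Igtp from -0.69 to 0.076. The cause of these changes was not tested. The other alternatives kept direction and side of the threshold for 602 values of single genes and lost or gained the threshold for 79 and 20. That threshold was an adjusted p of 0.05 for silencing over both populations and an unadjusted p of 0.05 elsewhere. The 602 include the permutation test with CPM of the raw totals. The block for overexpression and for the controls in Cd146+ cells left no residual degree of freedom and was not run. Lowest counts of 4 reads limit Gbp9 and Iigp1.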
